A study of Mus musculus with 6 samples.

Results

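The TRIM (tripartite motif) family of E3 ubiquitin ligases was read in mouse ovaries that carry a Dennd1a transgene and in wild-type ovaries. Members were all genes whose deposited symbol is Trim followed by a number and at most 1 letter, with at least 30 counts summed over the 6 libraries. This gave 47 of the 18280 genes in the table. A further 16 TRIM symbols were below that sum, out of 63 in all. Just inside the limit were Trim15 with 53 counts and Trim71 with 64, and just outside it were Trim66 with 24 and Trim43c with 21. The transgenic group (TG) held ovaries of 3 mice of the genotype Dennd1aTG, and the wild-type group (WT) held ovaries of 3 mice. All 6 mice had received PMSG, a gonadotropin with FSH-like activity that makes follicles grow, 44 h before the ovaries were taken. The labels give no strain, no age, no number of transgenic lines and no promoter for the transgene. Per the design text, the transgenic mice had low fertility and responded weakly to FSH, and the comparison asks how their ovaries differ from WT ovaries.

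A TRIM protein typically opens with a RING finger, which binds a ubiquitin-charged E2 enzyme, followed by 1 or more B-boxes and a coiled coil through which the protein pairs with itself. The C-terminal domain differs between subfamilies and binds the substrate. A SPRY domain is the most frequent, and others carry NHL repeats, a PHD finger with a bromodomain, a COS box, a MATH domain, an ARF-like domain or a transmembrane segment. Several SPRY members act in innate immunity, either by binding viral capsids or by attaching ubiquitin to sensors of viral RNA, and some of their genes are themselves switched on by interferon through a DNA element called the ISRE. Other members repress transcription, shape the cytoskeleton or control protein turnover in cells of many kinds.

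Dennd1a itself had 570.2, 582 and 588 CPM (counts scaled to library size) in the TG libraries, against 44.6, 39.5 and 49.3 CPM in the WT libraries, and all TG values lay far above all WT values. This was 13.0-fold higher in TG ovaries, with an adjusted p of 4.025e-07 in edgeR. Library totals ran between 17075484 and 18516171 counts. Granulosa cell markers such as Fshr and Cyp19a1 (7 of 7 tested) and oocyte markers such as Zp3 and Gdf9 (8 of 8 tested) were all abundant enough to be tested, and no gene of either list passed the test, adjusted or unadjusted. In 1 oocyte marker all TG values lay above all WT values, against 3.21% of all genes tested. No theca or endothelium marker passed after adjustment. An unadjusted p under 0.05 was reached by 1 of 4 theca and 2 of 6 endothelium markers, against 4.08% of all genes tested. Fat-cell genes summed to 168 CPM in TG replicate 2, against 15.2 to 33.5 CPM in the other 5 libraries. Counts were compared with edgeR's quasi-likelihood test over 14124 genes, and a gene is said to have fallen or risen (to be called) only where its Benjamini-Hochberg adjusted p was under 0.05. All p-values measure the spread between these 3 and 3 animals. Because whole ovaries were sequenced, fewer cells of a type and less RNA per cell cannot be told apart.

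Of the 47 members, 45 had enough counts to be tested. In TG ovaries 7 of these fell and none rose. The 7 were Trim30a, Trim34a, Trim30d, Trim12c, Trim12a, Trim21 and Trim25. All of them belong to the SPRY class and the first 5 lie in a single cluster on chromosome 7. That is 15.6% of the tested members, set against 1.02% of all genes tested that fell. No member rose, where 0.0354% of all genes did. An unadjusted p under 0.05 gave no higher member either, and DESeq2 called none higher. Counting only libraries, 12 members (26.7%) had all 3 TG values below all 3 WT values, against 5.04% of all genes. In the opposite direction stood 1 member, Trim27 (2.22%), against 3.21% of all genes. An unadjusted p under 0.05 was reached by 11 members (24.4%), against 4.08% of all genes. The median log2 fold change of the 45 members was −0.08, against 0.00 over all genes, and that of the 38 members not called was −0.03. The plot of fold changes shows the 7 called members on the negative side of 0, with the 38 others between −1.19 and 0.25.

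**Figure D1:**
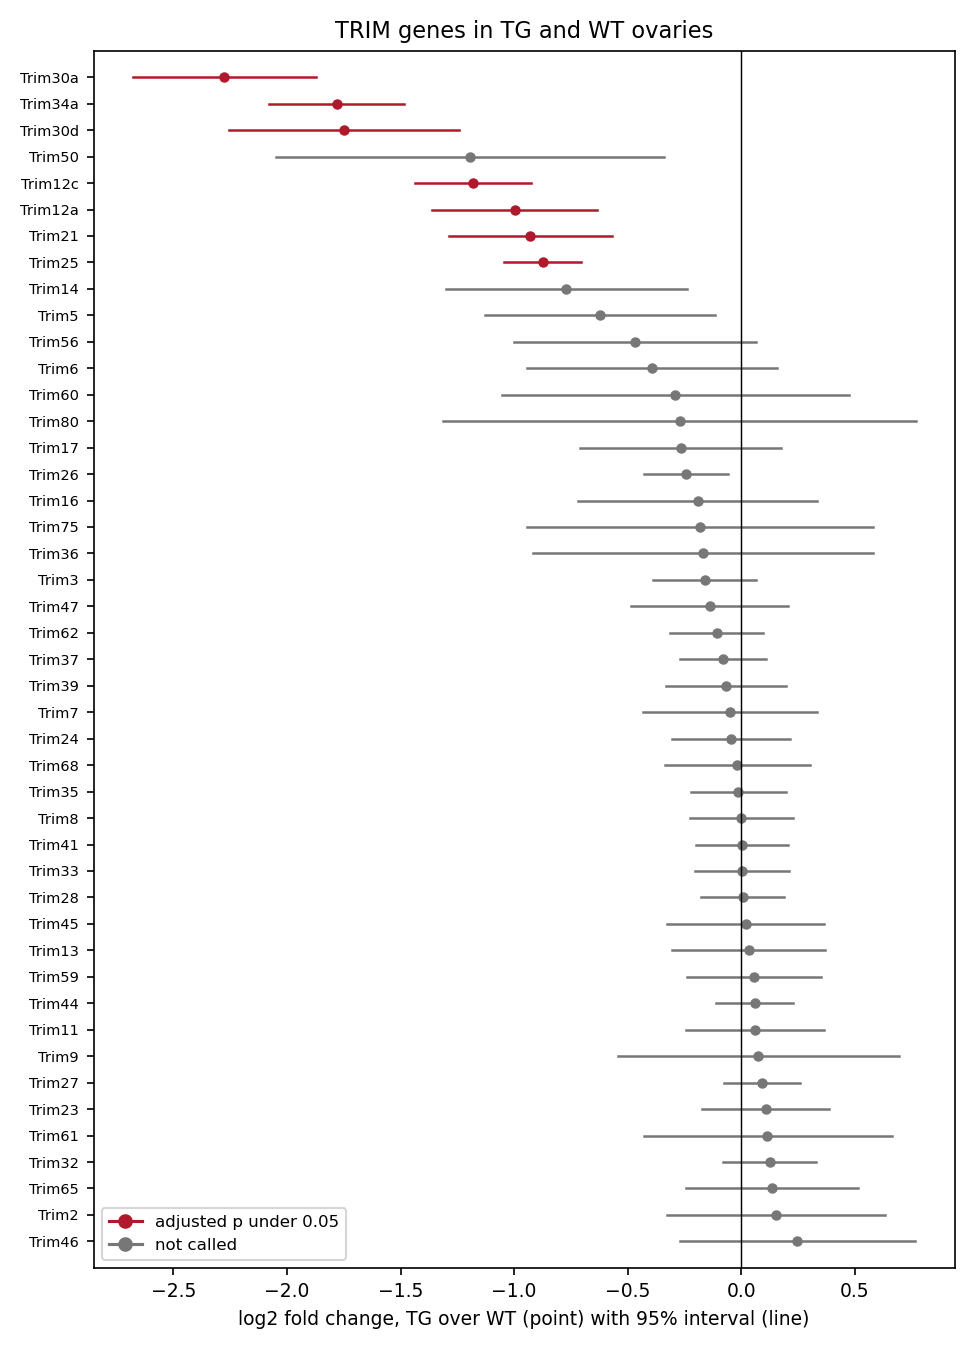
Log2 fold change, TG over WT, of the 45 tested TRIM genes (points) with 95% intervals (lines), ordered by size. Red marks the 7 genes with an adjusted p under 0.05, which lie between −2.28 and −0.87, and grey marks the 38 genes not called.

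The cluster on chromosome 7 spans 289 kb, at chr7:104218795-104507853 on GRCm38.p6, and holds the members Trim6, Trim34a, Trim5, Trim12a, Trim12c, Trim30a and Trim30d in that order. Trim30a, which in mouse macrophages restrains NF-kappaB signalling downstream of Toll-like receptors, had 14.8, 12.8 and 13.4 CPM in TG ovaries, against 80.5, 48.3 and 69.9 CPM in WT ovaries. The groups did not overlap, and the lowest WT value was above 3 times the highest TG value. On the log2 scale TG over WT was −2.28 ± 0.18 (SE), a 4.85-fold lower level in TG ovaries (edgeR, adjusted p 1.35e-04). Trim30d, a close paralogue of Trim30a, had 7.55, 6.55 and 6.999 CPM in TG ovaries, against 26.6, 15.4 and 29.1 CPM in WT ovaries. Again no TG library reached any WT library, although WT replicate 2 was clearly the lowest of its group. The difference was −1.75 ± 0.22 (log2, SE), at an edgeR adjusted p of 0.00313.

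Trim34a, the mouse counterpart of human TRIM34, which binds retroviral capsids, had 13.1, 11.9 and 14.1 CPM in TG ovaries, against 48.2, 37.1 and 49.0 CPM in WT ovaries. The values of the groups were far apart, and the fall had the smallest adjusted p of the family. Trim34a was 3.44-fold lower in TG ovaries (log2 −1.78 ± 0.13 SE, edgeR adjusted p 9.54e-05). Mouse Trim12a and Trim12c are relatives of human TRIM5, which binds the incoming HIV capsid. Trim12c in mouse cells works with TRAF6 in the induction of interferon. Trim12c had 21.5, 19.9 and 18.4 CPM in TG ovaries, against 50.5, 39.8 and 45.3 CPM in WT ovaries. Trim12a had 14.0, 15.3 and 14.9 CPM in TG ovaries, against 30.9, 22.2 and 35.1 CPM in WT ovaries. Neither gene had overlapping groups, and in both WT replicate 2 was the lowest of its group. The log2 fold change was −1.18 ± 0.11 (SE) for Trim12c and −0.998 ± 0.16 (SE) for Trim12a, at edgeR adjusted p of 4.44e-04 and 0.0161. The call of Trim12a was lost when any 1 of TG replicates 1, 2 or 3 or WT replicates 1 or 3 was left out (edgeR adjusted p 0.0574 to 0.0784), and kept without WT replicate 2.

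The other cluster members, Trim5 and Trim6, were not called. Mouse Trim5, the gene that bears the human gene's name, had 2.72, 2.81 and 3.15 CPM in TG ovaries, against 4.64, 3.39 and 5.34 CPM in WT ovaries. Trim6, which in human cells makes ubiquitin chains that act in the interferon response, had 1.44, 1.95 and 2.22 CPM in TG ovaries, against 2.37, 2.35 and 2.64 CPM in WT ovaries. In each gene all TG values lay below all WT values, by a small margin. The log2 fold changes were −0.62 (95% interval −1.13 to −0.11) for Trim5 and −0.39 (−0.94 to 0.16) for Trim6, and edgeR's adjusted p was 0.847 and 0.9997. At these low levels the intervals are wide, and a miss of the threshold does not show that Trim5 or Trim6 was alike in the groups. The cluster thus had 7 of 7 tested members with all TG values below all WT values, against 5.04% of all genes tested. It had 5 of 7 called lower, against 1.02% of all genes. Some of these neighbours share transcript stretches, so the 7 are not independent observations.

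**Figure D2:**
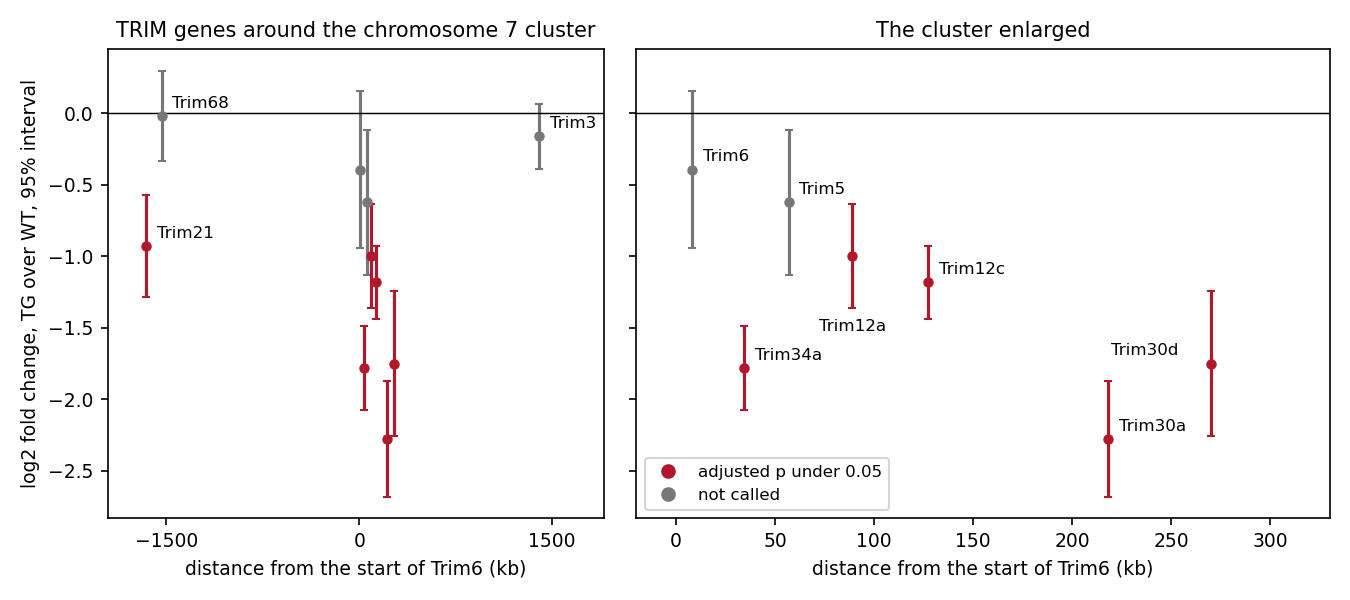
Log2 fold change, TG over WT, with 95% intervals, by distance in kb from the start of Trim6. The left panel adds Trim21, Trim68 and Trim3, and the right panel enlarges the 7 genes of the cluster. The 5 called cluster genes (red) lie between −2.28 and −0.998, while Trim68 and Trim3 (grey) lie at −0.02 and −0.16.

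The other called members lie outside the cluster. Trim21 binds the constant part of antibodies that have entered the cell with a virus and directs them to the proteasome. It lies 1653 kb from the cluster on the same chromosome. Trim21 had 12.5, 10.9 and 13.1 CPM in TG ovaries, against 23.0, 18.7 and 27.9 CPM in WT ovaries. The groups did not overlap, and Trim21 was 1.90-fold lower in TG ovaries (log2 −0.93 ± 0.16 SE, edgeR adjusted p 0.0235). Its call was lost without any 1 of the same 5 libraries (TG replicates 1, 2 and 3, WT replicates 1 and 3), at edgeR adjusted p of 0.0681 to 0.103. Trim25 attaches ubiquitin to RIG-I (Ddx58), a sensor of viral RNA, and is encoded on chromosome 11. Trim25 had 84.4, 80.1 and 82.5 CPM in TG ovaries, against 156, 143 and 153 CPM in WT ovaries. The spread within each group was small beside the distance between them. Trim25 was 1.83-fold lower in TG ovaries (log2 −0.87 ± 0.08 SE, edgeR adjusted p 2.28e-04).

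**Figure D3:**
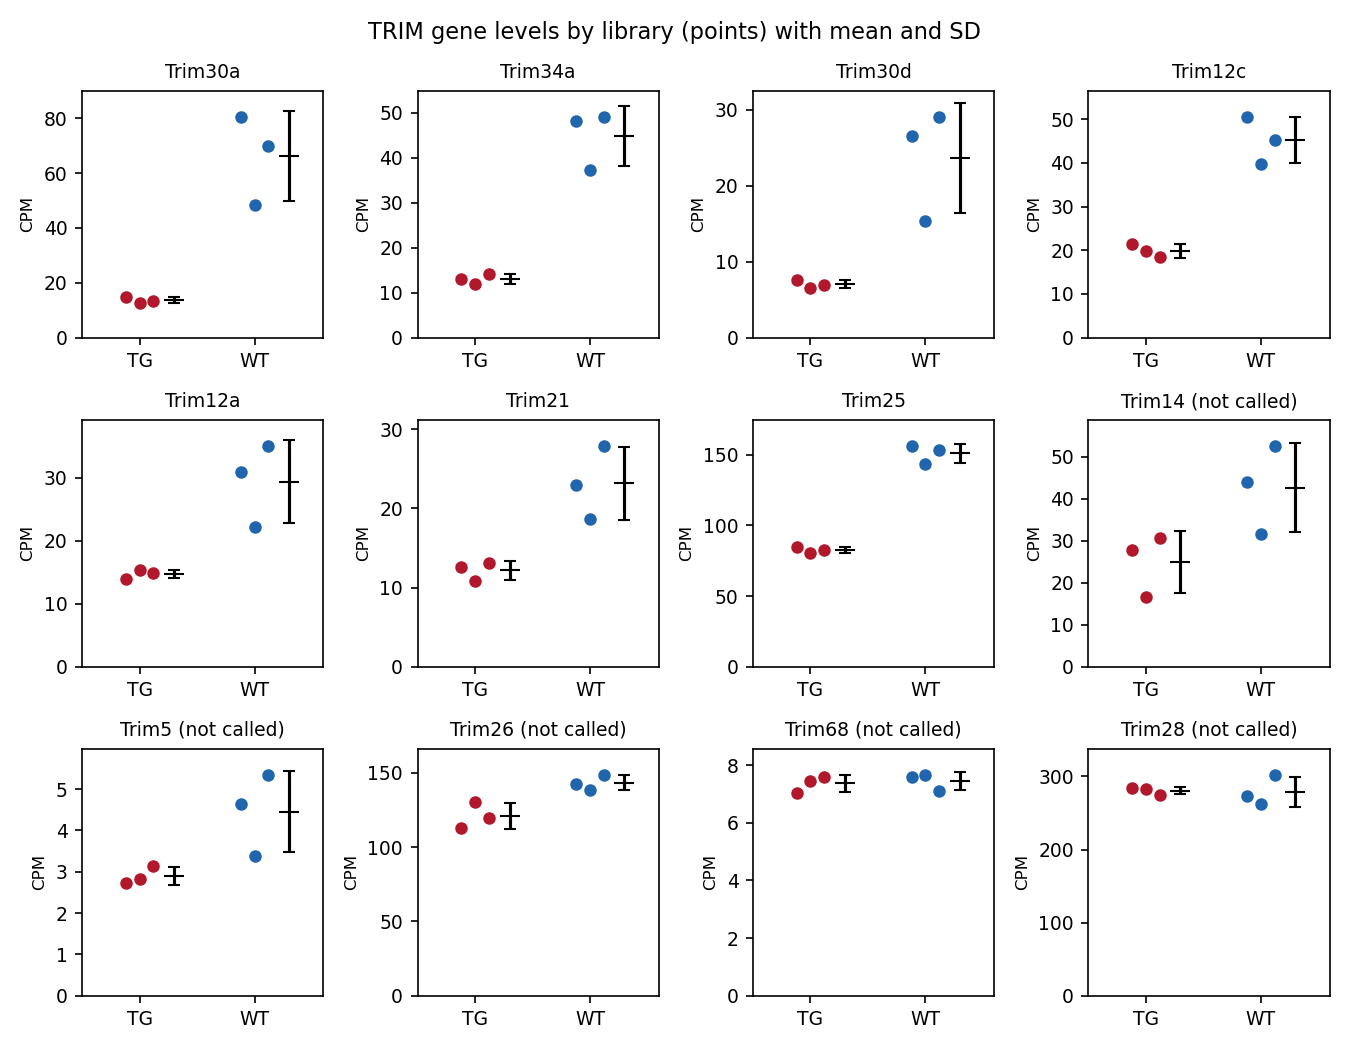
CPM of 12 TRIM genes in each TG (red) and WT (blue) library, with the mean and SD of 3 libraries beside them; each vertical axis starts at 0 and has its own scale. In the 7 called genes all TG points lie below all WT points, while those of Trim68 and Trim28 overlap.

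Genes of other families around the called members were also measured. Within 0.5 Mb of a called member lay 17 tested genes of other families, of which none fell and 1 rose. Over all genes tested 1.02% fell and 0.0354% rose, so 17 genes are too few for the absence of a fall to be informative. Of the 17, 9 lay by Trim21, 6 by Trim25 and 2 by Trim34a and Trim12a. Trim12c, Trim30a and Trim30d had no tested neighbour, so the surroundings of the cluster were hardly measured. The gene that rose was the beta-globin gene Hbb-bs, near the cluster, at 0.62 on the log2 scale (edgeR adjusted p 0.00660). Hbb-bs is also among the erythrocyte markers described below. The log2 fold changes of the 17 ran from −0.30 to 0.71. Trim68, near Trim21 on the chromosome and 1531 kb from the cluster, had 7.05, 7.47 and 7.58 CPM in TG ovaries, against 7.60, 7.66 and 7.11 CPM in WT ovaries. Its groups overlapped, and the 95% interval of its log2 fold change was −0.34 to 0.30.

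The promoters of the called members were read from the RefSeq table of promoter windows, 250 bases before to 50 after an annotated start on GRCm38.p6, which holds 36 of the 47 members. The searched letters were GAAANNGAAA, the core of the ISRE, on both strands (TTTCNNTTTC on the other), and they were found in 3.44% of the 32851 windows in the table. Among tested genes with a window, 431 of 11183 (3.85%) held a match. The genes that fell held one in 52 of 110 (47.3%). Of the 7 called TRIM members 6 held a match, and of 27 tested members not called with a window 3 did, namely Trim5, Trim26 and Trim2. A second motif, TTCNNNGAA, the core of the interferon-gamma element GAS, which reads the same on both strands and can overlap the first, was in 8.33% of tested genes. Of the genes that fell, 18 of 110 (16.4%) held it. It was in none of the 7 called members and in 2 of the 27 others. So few called members cannot set their share apart from that of all tested genes. A match is only a string of letters and not a shown binding site.

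The sequences that carry these matches are shown so that their place can be compared, each from 100 bases before to 30 after an annotated start and read in the direction of the gene. Capitals mark the matched letters. Trim30a is shown at the farther upstream of its annotated starts, chr7:104465164-104465293 on the minus strand. Trim30d is at chr7:104507820-104507949 (minus strand), Trim12c at chr7:104353320-104353449 (minus), Trim12a at chr7:104315466-104315595 (minus), Trim34a at chr7:104244357-104244486 (plus) and Trim21 at chr7:102565453-102565582 (minus). Trim5, the uncalled neighbour, is at chr7:104288077-104288206 (minus), and Trim25, called but without a match, is at chr11:88999303-88999432 (plus).
Trim30a: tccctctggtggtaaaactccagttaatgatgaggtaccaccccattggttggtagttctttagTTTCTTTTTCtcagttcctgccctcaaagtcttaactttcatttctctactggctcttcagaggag
Trim30d: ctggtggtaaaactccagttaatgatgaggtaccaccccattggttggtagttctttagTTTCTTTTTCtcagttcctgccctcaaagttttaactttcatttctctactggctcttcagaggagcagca
Trim12c: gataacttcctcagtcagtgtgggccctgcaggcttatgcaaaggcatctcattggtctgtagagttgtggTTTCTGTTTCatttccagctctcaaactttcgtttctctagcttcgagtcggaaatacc
Trim12a: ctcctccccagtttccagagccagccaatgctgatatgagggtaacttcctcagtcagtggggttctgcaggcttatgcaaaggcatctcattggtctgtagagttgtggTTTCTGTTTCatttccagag
Trim34a: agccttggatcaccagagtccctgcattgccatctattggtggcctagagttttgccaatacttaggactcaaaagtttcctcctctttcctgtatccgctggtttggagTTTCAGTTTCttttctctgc
Trim21: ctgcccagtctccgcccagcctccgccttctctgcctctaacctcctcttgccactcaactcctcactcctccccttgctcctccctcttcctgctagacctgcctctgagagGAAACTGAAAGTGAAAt
Trim5: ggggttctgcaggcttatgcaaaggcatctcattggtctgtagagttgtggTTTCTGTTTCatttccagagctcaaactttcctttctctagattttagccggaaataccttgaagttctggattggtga
Trim25: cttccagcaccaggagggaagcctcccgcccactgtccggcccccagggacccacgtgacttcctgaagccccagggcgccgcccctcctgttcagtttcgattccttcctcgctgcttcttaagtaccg
The Trim30a and Trim30d windows were the same in 91.9% of alignment columns. This share counts gaps as differences, including the window ends left unmatched because the annotated starts are shifted, so it understates the likeness. Both carried the same matched letters, beginning 36 bases (Trim30a) and 41 bases (Trim30d) before the annotated start. Trim12c, Trim12a and Trim5 shared 1 matched string, 29 bases before the start in Trim12c, 49 bases before it in Trim5 and 10 bases after it in Trim12a. Trim34a had its match 10 bases after the start, and Trim21 had a run of 16 bases made of 2 overlapping matches, 13 bases after it. Trim5 carried the string of Trim12c and was not called, but its log2 fold change was −0.62, with an interval of −1.13 to −0.11. The other uncalled members with a match were Trim26, at −0.245 (−0.43 to −0.06), and Trim2, at 0.15 (−0.33 to 0.63). Trim25 fell and carried none in its window. Some other uncalled members also had all TG values below all WT values. Of these, Trim6 had no match in its window, and Trim14 and Trim50 had no window.

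Near-identical copies limit how far these genes can be told apart. Of the 50-base stretches in GENCODE transcripts, 39.8% of those of Trim34a also lay in Trim34b, 24.2% of those of Trim12c in Trim5, 23.5% of those of Trim5 in Trim12c, and 5.98% of those of Trim30a in Trim30d. Counting every other gene, the share was 33% for Trim12c, 36.3% for Trim5 and 10.4% for Trim12a, with 5.04% of the Trim12a stretches in Trim5. It was 0.216% for Trim21 and 0.191% for Trim25. The deposited estimates for Trim30a and Trim30d had fractional parts in all 6 libraries, as when a read is divided between genes. Those of Trim12c and Trim5 had them in 5 libraries and those of Trim34a in 4, whereas those of Trim12a, Trim21 and Trim25 were whole throughout. When counts of near-identical genes were added up before the test, an alternative chosen after seeing the data, the summed genes fell as well. The differences were −2.12 ± 0.18 (log2, SE) for the Trim30 genes, −1.07 ± 0.12 for the Trim12 genes with Trim5, and −1.77 ± 0.13 for the Trim34 genes. Their edgeR adjusted p were 2.22e-04, 9.23e-04 and 8.69e-05, in that order. Reads of Trim34b and Trim30b themselves were few, with 13.1 and 6.88 counts over all libraries.

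Levels of different members are compared on the deposited per-length scale, FPKM (fragments scaled to transcript length and library size). The cluster's 7 genes summed to 29.6, 28.1 and 29.1 FPKM in TG ovaries, against 88.7, 61.8 and 88.1 FPKM in WT ovaries. The share of single genes in this sum was also set side by side. Trim12a held 34.8%, 38.9% and 36.7% of the cluster's FPKM in TG ovaries, against 25.0%, 25.6% and 28.1% in WT ovaries. Trim30a held 14.0%, 12.5% and 12.8% in TG ovaries, against 25.2%, 21.4% and 21.9% in WT ovaries. Neither share overlapped between the groups, and Trim12a took the larger share in TG ovaries. The ratio of Trim30a to Trim30d was 1.78, 1.80 and 1.75 in TG ovaries, against 2.85, 2.88 and 2.22 in WT ovaries, with no overlap. The ratio of Trim12a to Trim12c was 1.68, 1.99 and 2.06 in TG ovaries, against 1.55, 1.42 and 1.96 in WT ovaries, and overlapped. All 47 members together summed to 520.57 ± 8.25 FPKM in TG ovaries and 596.07 ± 34.2 FPKM in WT ovaries (SD, n = 3 each). Without the 7 called members the sums were 473.12 ± 6.66 FPKM in TG ovaries and 482.12 ± 16.4 FPKM in WT ovaries, which overlapped.

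**Figure D4:**
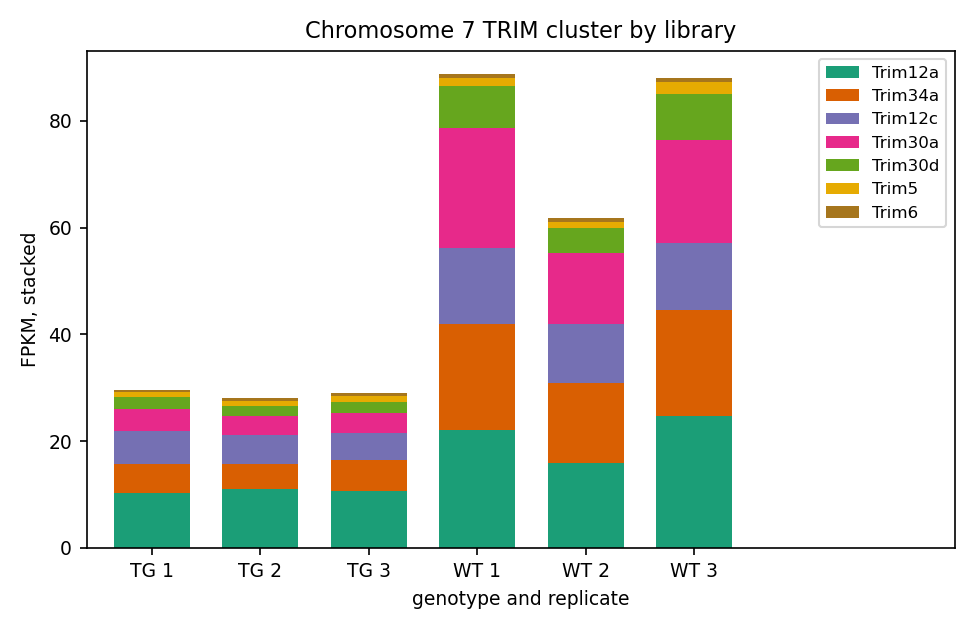
FPKM of the 7 genes of the chromosome 7 cluster, stacked for each library. The TG bars reach 28.1 to 29.6 FPKM and the WT bars 61.8 to 88.7 FPKM, and WT replicate 2 is the lowest of the WT bars.

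The family ranged in level upwards of Trim71, at 0.107 FPKM in TG ovaries and 0.137 in WT ovaries. There were 9 members at a mean of 20 FPKM or more, 18 between 5 and 20, 10 between 1 and 5, and 10 below 1. The most abundant was Trim28 (also known as KAP1), a corepressor that recruits heterochromatin factors to DNA-bound zinc-finger proteins, with 91.5 ± 2.02 FPKM in TG ovaries and 90.6 ± 6.70 FPKM in WT ovaries (SD, n = 3 each). Next came Trim35 with 57.5 FPKM in TG ovaries and 57.7 in WT ovaries (log2 fold change −0.01, 95% interval −0.22 to 0.20), Trim26 with 40.0 and 47.2, and Trim44, a member with no RING finger, with 34.4 and 32.9. Trim8 had 32.3 FPKM in TG ovaries and 32.1 in WT ovaries, and Trim27 had 31.5 and 29.2. Trim28, Trim35, Trim26 and Trim44 were set apart from each other by more than their spread. Trim44 and Trim8, and Trim8 and Trim27, were not, with SDs of 1.996 FPKM in TG ovaries and 4.04 in WT ovaries for Trim8. Called members changed places: Trim30a was 27th of 47 in TG ovaries and 11th in WT ovaries, and Trim34a was 25th in TG ovaries and 12th in WT ovaries.

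**Figure D5:**
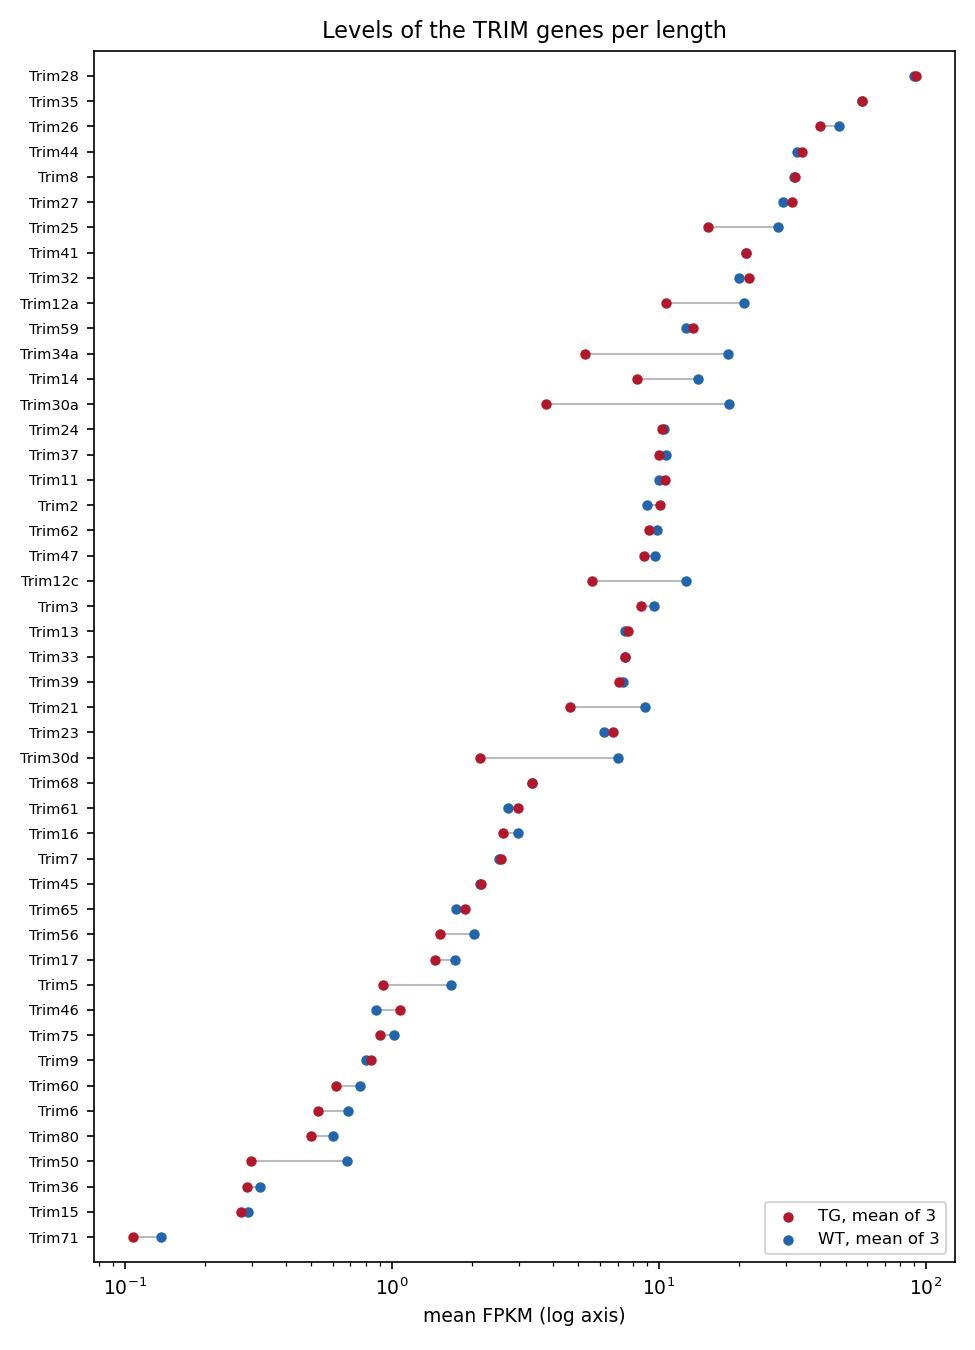
Mean FPKM (log axis) of the 47 TRIM genes in TG (red) and WT (blue) ovaries, ordered by the mean over all libraries, with a grey line joining both. The red points of Trim30a (3.79 FPKM, against 18.3 in WT), Trim34a (5.30, against 18.2 in WT) and the other called genes lie to the left of their blue points.

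Of the SPRY class, 27 of 28 members were tested, 7 fell, and 23 had a log2 fold change below 0, with a median of −0.27. Over the whole table, 6969 of the 14124 genes tested lay below 0. The 20 SPRY members not called had a median of −0.16. Of the SPRY members not called, Trim14, Trim26, Trim5 and Trim50 had an interval wholly below 0. Trim14 is a mitochondrial adaptor in the signalling of viral RNA sensors. It had 27.7, 16.6 and 30.7 CPM in TG ovaries, against 43.9, 31.5 and 52.6 CPM in WT ovaries. The highest TG value stood just under the lowest WT value, so the groups did not overlap by a narrow margin. Its difference of −0.77 (log2, 95% interval −1.30 to −0.24) did not pass in edgeR, with an adjusted p of 0.490. It passed in DESeq2 (adjusted p 0.0416) and in edgeR with a replicate block (adjusted p 0.00451). Trim26, a gene of the major histocompatibility region, had 113, 131 and 119 CPM in TG ovaries, against 142, 139 and 149 CPM in WT ovaries. All TG values lay below all WT values, at −0.25 on the log2 scale (−0.43 to −0.06, edgeR adjusted p 0.666). Trim50, known from gastric parietal cells, was low, with 0.555, 0.460 and 0.525 CPM in TG ovaries, against 1.13, 1.64 and 0.763 CPM in WT ovaries. Trim50 stood at −1.19 on the log2 scale (−2.05 to −0.34, edgeR adjusted p 0.561), on few counts. Trim27, the member with all TG values above all WT values, had 72.0, 74.7 and 71.0 CPM in TG ovaries, against 67.3, 67.2 and 69.9 CPM in WT ovaries, a log2 fold change of 0.09 (−0.08 to 0.26).

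The SPRY class here holds members with a SPRY domain and no COS box; Trim9, Trim46 and Trim36, which carry both, form a class of their own. Outside the SPRY class none of the 18 tested members was called in edgeR, none had an unadjusted p under 0.05, and their log2 fold changes ran from −0.47 to 0.25. The PHD and bromodomain members, which act on chromatin and transcription, gave log2 fold changes of 0.01 (95% interval −0.18 to 0.19) for Trim28, −0.05 (−0.30 to 0.21) for Trim24 and 0.00 (−0.20 to 0.21) for Trim33. Of the NHL members, Trim32 had 68.9, 60.1 and 69.5 CPM in TG ovaries, against 56.7, 61.9 and 63.4 CPM in WT ovaries. Its groups overlapped, with a log2 fold change of 0.12 (−0.08 to 0.33). Trim2, a ligase of neurofilament in neurons, gave 0.15 (−0.33 to 0.63), and Trim3 gave −0.16 (−0.39 to 0.06). Trim71, which acts in early embryonic cells, had 64 counts in all and was not tested.

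Classes with 1 to 4 members followed. Trim37, the MATH member whose loss causes a growth disorder in humans, stood at −0.08 on the log2 scale (95% interval −0.27 to 0.11). Trim23, which carries an ARF-like domain, gave 0.11 (−0.17 to 0.39), and Trim45, with a filamin repeat alone, 0.02 (−0.33 to 0.36). The membrane-anchored Trim13 and Trim59 gave 0.03 (−0.30 to 0.37) and 0.06 (−0.24 to 0.35). The microtubule-associated Trim9, Trim46 and Trim36 gave 0.07 (−0.55 to 0.69), 0.25 (−0.27 to 0.77) and −0.17 (−0.92 to 0.58), at a mean of 1.07 FPKM or less in either group. Among members without a C-terminal domain the most abundant, Trim44, gave 0.06 (−0.11 to 0.23), and Trim8 gave 0.00 (−0.23 to 0.23). Trim61, whose locus overlaps Trim60, gave 0.12 (−0.43 to 0.66). Trim56, an interferon-inducible ligase in human cells, had 6.33, 3.45 and 4.37 CPM in TG ovaries, against 7.33, 6.57 and 5.70 CPM in WT ovaries, which overlapped, and its interval was −1.001 to 0.06. The 13 uncalled SPRY members outside the rule for named genes, which include Trim68, lay between −0.29 and 0.14 on the log2 scale, with none called. Trim15 was too low to test. For the 21 uncalled members with a mean of 5 FPKM or more, all 95% intervals of the log2 fold change lay between −1.30 and 0.63.

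The 16 TRIM symbols below the limit had between 1 and 24 counts and were not tested. Muscle members were almost absent, with 2 counts of Trim63 in all, and Trim69 had 0, 0 and 1 counts in TG ovaries, against 3, 6 and 3 in WT ovaries.

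Relatives of the family under other names, and its partners, were described from lists of named genes. Their counts stand beside a share of 1.02% of all genes tested that fell, and a count of 1 or 2 genes says little about a list. Pml holds the RING finger, B-boxes and coiled coil of a TRIM protein and forms nuclear bodies. Only its symbol kept it out of the members counted above. Pml had 62.9, 59.5 and 63.6 CPM in TG ovaries, against 93.7, 83.8 and 116 CPM in WT ovaries. It fell by 0.66 ± 0.12 on the log2 scale (SE, edgeR adjusted p 0.0319), as 1 of 8 tested relatives under other names, whose median was 0.01. Of 13 E2 enzymes, which hand ubiquitin to the RING finger, 1 fell. This was Ube2l6, which also serves the ubiquitin-like protein ISG15, with 25.8, 24.7 and 29.3 CPM in TG ovaries, against 72.5, 62.5 and 97.4 CPM in WT ovaries. Ube2l6 was 2.91-fold lower in TG ovaries (log2 −1.54 ± 0.16 SE, edgeR adjusted p 7.45e-04). The median of the 13 was 0.00. Of 18 signalling partners 2 fell. Ddx58 (RIG-I), the target of Trim25, had 47.1, 37.8 and 49.3 CPM in TG ovaries, against 154, 117 and 166 CPM in WT ovaries. Ifih1, another sensor of viral RNA, had 20.6, 19.5 and 19.8 CPM in TG ovaries, against 85.9, 61.3 and 83.0 CPM in WT ovaries. Both sets of libraries were wholly apart, with log2 fold changes of −1.70 for Ddx58 and −1.94 for Ifih1 and edgeR adjusted p of 2.36e-04 and 6.58e-05. Mavs, the mitochondrial adaptor of both sensors, had a log2 fold change of 0.07 and was not called, and the median of the 18 was −0.03. None of the 12 partners of Trim28 in heterochromatin was called, nor had any an unadjusted p under 0.05 in edgeR, and their median was 0.08.

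Of 9 tested regulators of the interferon response (receptor subunits, kinases and transcription factors) 4 fell, all of them transcription factors, and the median of the 9 was −0.23. The share of all genes tested that fell was 1.02%. Irf7 had 14.0, 17.7 and 17.9 CPM in TG ovaries, against 247, 163 and 272 CPM in WT ovaries, and stood at −3.78 on the log2 scale. Stat2 gave −1.30 and Irf9 −1.46, and both act at the ISRE. The edgeR adjusted p of Irf7, Stat2 and Irf9 ran from 2.89e-05 to 0.00158. The receptor subunit Ifnar1 gave −0.04 and the kinase Jak1 0.07, and neither was called. All 13 tested interferon effectors fell, with log2 fold changes from −4.03 to −1.34 and a median of −3.15. WT replicate 2 was the lowest WT library in 7 of 7 called TRIM members and in 12 of the 13 effectors. WT replicate 3 was the highest in 4 of the 7 members and in 12 of the 13 effectors. The TG libraries shared no such order. TG replicate 2 was the lowest in 5 of the 7 members but the highest in 6 of the 13 effectors. TG replicate 1 was the highest in 4 of the 7 members but the lowest in 6 of the 13 effectors.

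Markers of other cell types were measured beside these genes. None of the 10 macrophage and myeloid markers passed the test in edgeR, though 8 had an unadjusted p under 0.05, against 4.08% of all genes tested. Their median log2 fold change was −0.65, and 7 of the 10 had all TG values below all WT values, against 5.04% of all genes tested. They summed to 321 to 365 CPM in TG libraries and 363 to 598 CPM in WT libraries, lowest in WT replicate 2. The 8 lymphocyte markers summed to 4.72 to 6.85 CPM in TG libraries and 6.78 to 8.05 in WT libraries, and edgeR called none of the 6 tested (1 had an unadjusted p under 0.05). Erythrocyte markers summed to 192 to 218 CPM in TG libraries and 118 to 135 in WT libraries. Of these, 3 of 5 tested rose, against 0.0354% of all genes tested. No listed marker of these 3 kinds was at 0 in all libraries. The part of these cells in the fall of the TRIM genes was not tested.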

How the data were processed

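RNA came from whole ovaries and was read on the BGISEQ-500 platform, per the labels. Bowtie2, RSEM 1.3.1, DESeq2 1.4.5 and the build mm10 appear in the submitters' processing notes with no role given. Annotation, strand setting and batches are not given in the sources used here. Some loci overlap in part (Trim37 with Ppm1e, Trim17 with H2aw, Trim13 with Kcnrg, Trim46 with Krtcap2, Trim32 with Astn2), and how reads over any shared bases were assigned is not known here. The authors deposited an estimated count per gene and library, per the file headers, and 8.5% to 9.12% of these values per library have fractional parts. A second set of deposited columns was taken as FPKM from its values, since the headers name no unit. Deposited group averages were not used.

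Estimated counts were rounded to whole numbers. They were tested two-sided with the quasi-likelihood F test of edgeR 4.0.16 in R 4.3.3, after TMM scaling and filterByExpr (at least 10 counts, and 15 over all libraries), with Benjamini-Hochberg adjustment over 14124 genes and a threshold of 0.05. CPM use TMM-scaled library sizes, except that sums over marker lists use library totals. SE was taken as the size of the log2 fold change over the square root of F, and intervals are 95%. The procedure was tested on simulated data. Named members are those called, those with an unadjusted p under 0.05, the 6 most abundant by FPKM, the most abundant of each domain class, every tested member of classes with 4 or fewer members, and the chromosome 7 cluster. Trim68, Trim69, Trim71 and Trim63 were named after their values were seen. Members, domain classes and lists were chosen with earlier results of these data known. Of 15 interferon effectors listed, 13 were analysed here. The values of 1 called interferon regulator are not reported here. Alternatives used limma 3.58.1, DESeq2 1.42.0, other scalings and filters, and left-out libraries. Replicate numbers of the titles were checked for pairing. Deviations of same-numbered libraries correlated at 0.23, 0.08 and 0.09, so the numbers were not taken to pair animals. Totals of 17075484 to 18516171 counts limit the precision for low genes, and intervals include the spread between animals.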

Additional observations from a re-analysis of the deposited data

How the results depend on the processing

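Trim30a, Trim34a, Trim12c and Trim25 were called lower in TG ovaries in all 17 alternative fits, and no called member changed sign. Leaving out 1 library at a time gave 5 to 7 TRIM members lower, 0 higher, 118 to 174 genes lower and 4 to 6 higher. Trim21 and Trim12a lost their call without any 1 of TG replicates 1, 2 or 3 or WT replicates 1 or 3, with edgeR adjusted p of 0.0681 to 0.103 for Trim21 and 0.0574 to 0.0784 for Trim12a; the cause was not tested. Leaving out TG replicate 2 and WT replicate 3 together left 4 members lower, with Trim30d (0.0733), Trim12a (0.134) and Trim21 (0.168) lost on 2 against 2 libraries. A further threshold of a 2-fold difference (log2 of 1 in size) left a different set of 4 members, Trim30a, Trim34a, Trim30d and Trim12c, and 1 gene higher over the whole table. Trim25, at −0.87, did not reach it. DESeq2 called 8 members (Trim14 added), 192 genes lower and 11 genes higher. A fit with the replicate block, although the numbers are not shown to pair animals, gave 8 members lower (Trim14 added), 153 genes lower and 6 higher; every library correlated best with its own number, a hint from the data only. Of 25 named members not called, 12 changed sign in some fit and 1, Trim14, gained a call. Under the other scalings the median log2 fold change of all genes was 0.003 to 0.015, against 0.002 in the main fit. The stricter count filter and the FPKM filter held 38 members, so the others have no value there. Low counts limit members under 1 FPKM.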
